A study of Homo sapiens with 12 samples.

Results

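Described here are 40 human genes of DNA replication and mitosis, chosen by symbol as a functional group, in AsPC-1 cells in which BACH1 was knocked down or knocked out. Each was looked up by its Ensembl identifier without the version, and 39 of the 40 matched a row in both count tables, which hold 57820 identifiers. *UHRF1*, an adaptor for maintenance of DNA methylation at the replication fork, matched no row through the name tables used and has no expression value here. Of the 39, 15 are S-phase genes, 22 are G2/M genes and 2, *CCND1* and *CDK2*, were put in neither class. AsPC-1 is an established human pancreatic ductal adenocarcinoma line, and BACH1 is a heme-regulated repressor of antioxidant and heme-breakdown genes. The study searched for the genes that BACH1 controls.

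SiBACH1 cells received a short interfering RNA (siRNA) that targets *BACH1* and were collected 24 h later, and siCont cells were their controls. SgBACH1 cells were AsPC-1 cells infected with a lentiCRISPR v2 lentivirus carrying Cas9 and 1 guide RNA against *BACH1* and selected in 10 µg/ml puromycin, and sgCont cells were their controls. The sources used here give neither the control siRNA nor the control guide, and do not say whether the knockout cells were 1 clone or a mixed population. Total RNA was depleted of ribosomal RNA and sequenced in 12 libraries, 3 per group. The labels do not say whether the 3 replicates of a group were grown separately, so each p-value rests on a spread that may be technical.

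A dividing cell copies its DNA in S phase and separates the copies in mitosis. Cyclins switch on cyclin-dependent kinases at each step, E2F factors drive the genes of DNA synthesis before S phase, and the MuvB complex with B-MYB and FOXM1 drives mitotic genes in G2. Carcinoma lines such as AsPC-1 divide continuously in culture, so both sets are normally expressed. In bulk RNA, fewer cells in a phase and less RNA per cell cannot be told apart.

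Libraries held 13099706 to 21478886 counts over genes, and no member fell under 72 counts in any library, so all 39 were tested in every fit. *BACH1* stood at 24.5, 27.2 and 25.04 CPM (TMM-scaled CPM, each gene's share of its library's counts) in siBACH1, against 196, 289 and 193 CPM in siCont. It stood at 219, 199 and 188 CPM in sgBACH1, against 269.9, 295 and 278 CPM in sgCont. The log2 fold change was -3.15 ± 0.17 (SE, edgeR adjusted p = 4.09e-06) after the siRNA. In the knockout it was -0.48 ± 0.08 (SE, edgeR adjusted p = 4.48e-05). An edit of the coding sequence need not lower the count, and these libraries do not measure BACH1 protein. SiCont replicate 2 differed from replicates 1 and 3 with a chi-square per degree of freedom of 30.5 and 35.8, against 8.89 between replicates 1 and 3. The 6 epithelial markers (*EPCAM*, *CDH1*, *KRT8*, *KRT18*, *KRT19*, *KRT7*) summed to 12682 to 12982 CPM in siBACH1 and 11250.3 to 12837 CPM in siCont. They summed to 12031 to 13666 CPM in sgBACH1 and 18838 to 20446 CPM in sgCont, and *KRT7* was the lowest in each group. The markers did not move together (edgeR log2 fold changes, adjusted p below 0.05). In the knockout *EPCAM* (0.54) and *CDH1* (0.57) rose, and *KRT8* (-0.66), *KRT18* (-0.74), *KRT19* (-0.32) and *KRT7* (-1.81) fell. After the siRNA *CDH1* (0.84) rose, *KRT19* (-0.41) and *KRT7* (-1.48) fell, and 3 did not pass. Of 9 markers of blood, endothelium and fibroblasts that matched a row, 8 stood near 0, whereas *LUM*, a matrix proteoglycan gene, averaged 348 CPM in siBACH1, 295 CPM in siCont, 49.1 CPM in sgBACH1 and 124 CPM in sgCont. *CD3E* and *CDH5* were at 0 in all siCont libraries, and *CD3E* and *CD79A* in all sgCont libraries. The part of the epithelial and *LUM* levels in the results was not tested.

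In the siRNA comparison 9 of the 39 members rose, 5 fell and 25 did not pass the test (edgeR quasi-likelihood test, two-sided, adjusted p below 0.05 over all genes tested). That is 35.9% of members, read against 23.9% of all 14591 genes tested, with 10.9% higher and 13% lower. Genes with lower counts than any member were also tested, so the shares are not matched for level. Members were chosen with earlier results of these data known, and the difference between the shares was not tested. The risers were the proliferation marker gene *MKI67*, *CCND1*, *CDK1*, *CDK2*, *AURKB*, *BUB1B* and the helicase genes *MCM2*, *MCM3* and *MCM5*, by 0.32 to 0.52 on the log2 scale. The fallers were *PBK* at -2.58, *RRM2* at -0.55, *CCNB1* at -0.49, *PLK1* at -0.42 and *BUB1* at -0.28. The median log2 fold change was 0.13 over the members and 0.005 over all genes tested. In 15 members all siBACH1 libraries lay above all siCont libraries and in 5 they lay below, and 42.3% of all genes tested had groups that did not overlap. SiCont replicate 2 and siBACH1 replicate 2 bear on these counts: 13 members rose and 8 fell without siCont replicate 2, and 5 rose and 4 fell without siBACH1 replicate 2.

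In the knockout comparison 4 members rose, 6 fell and 29 did not pass the same test. That is 25.6% of members, close to the 23.5% of all 14469 genes tested, with 11.3% higher and 12.3% lower. *PBK* (0.44), *MCM5* (0.38), *PCNA* (0.28) and *MCM6* (0.26) rose, and *PLK1* (-0.64), *GINS2* (-0.45), *CDK2* (-0.38), *FOXM1* (-0.38), *CDT1* (-0.37) and *TPX2* (-0.31) fell. The median log2 fold change was -0.04 over the members and 0.0055 over all genes tested. SgBACH1 libraries lay all above sgCont libraries in 6 members and all below in 14, against 36.6% of all genes tested with groups that did not overlap. Without sgBACH1 replicate 2, 3 members rose and 3 fell. The members' median ran from -0.06 without sgCont replicate 3 to -0.01 without sgCont replicate 2.

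**Figure D1:**
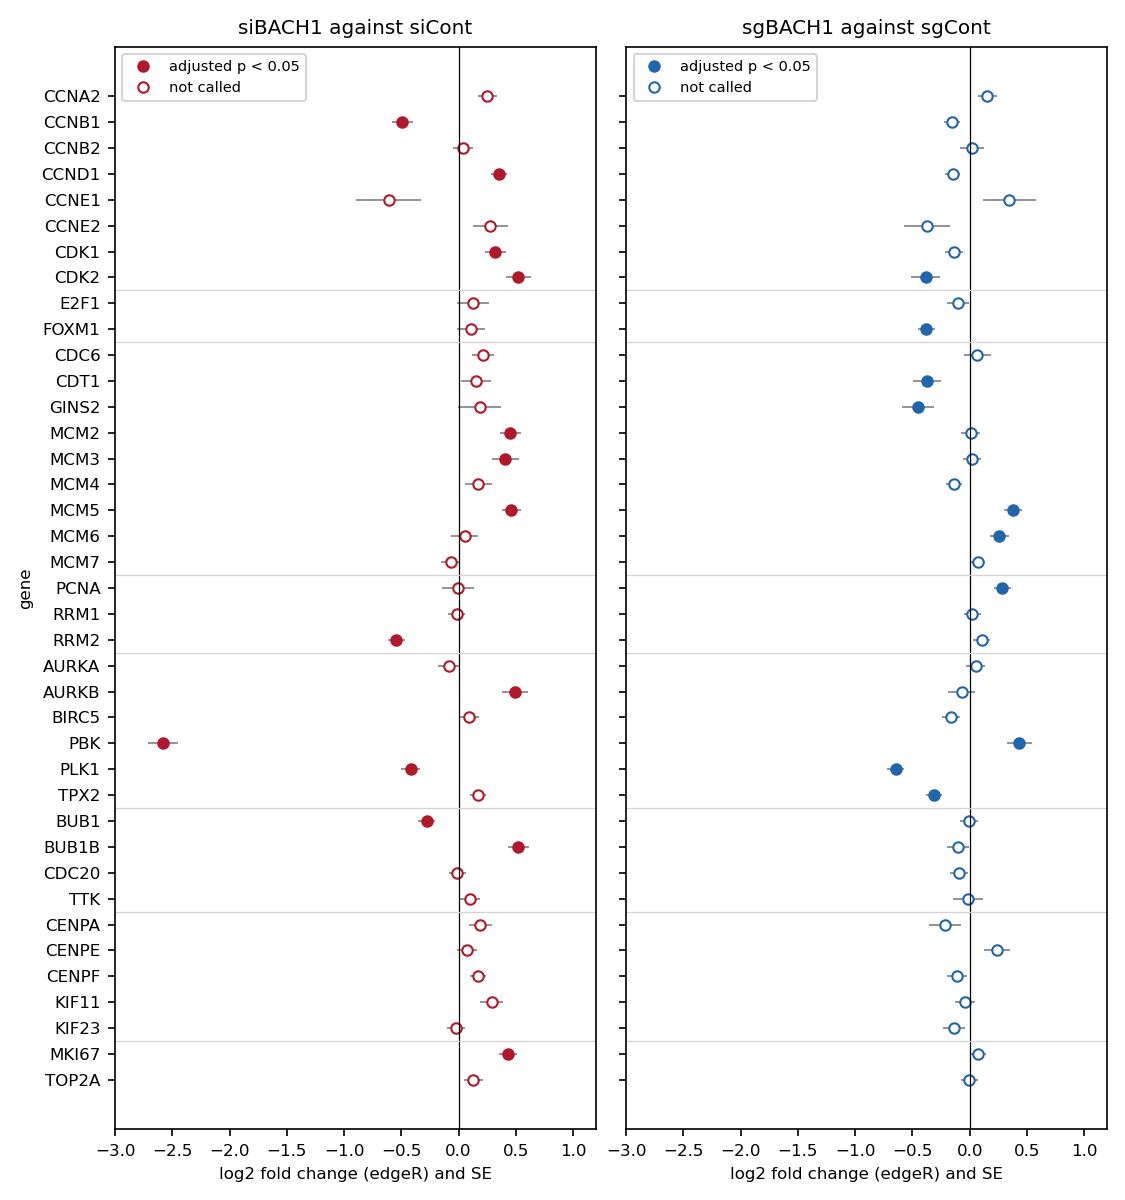
Log2 fold change of each member by edgeR (horizontal axis, bars are the SE), siBACH1 against siCont on the left and sgBACH1 against sgCont on the right; filled points passed an adjusted p below 0.05, and pale lines divide the roles. *PBK* stands alone at -2.58 on the left, and all other called changes on both sides lie between -0.64 and 0.52.

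Of the 39 members, 2 were called in both in the same direction, *PLK1* lower and *MCM5* higher, and 2 were called in opposite directions, *PBK* and *CDK2*. Of all 13845 genes tested in both, 4.82% were called in the same direction and 3.52% in opposite directions, so these counts lie near the background. A further 10 were called in the siRNA comparison alone, 6 in the knockout alone and 19 in neither. A call in 1 comparison alone does not show a difference, so the knockout response minus the siRNA response was tested over all 12 libraries. It passed for 13 members, 3 with a higher value in the knockout and 10 with a lower one (edgeR), and for 23.6% of all 15644 genes tested, with 13% higher and 10.6% lower. The median difference was -0.23 over the members and 0.018 over all genes tested. The differences were 3.01 for *PBK*, 0.64 for *RRM2* and 0.33 for *CCNB1* on the higher side. On the lower side they ran from -0.91 for *CDK2* and -0.63 for *BUB1B* to -0.37 for *MKI67*, with *AURKB*, *CDT1*, *CCND1*, *FOXM1*, *TPX2*, *CDK1* and *MCM2* between. Some of these calls were lost when 1 library was left out, with the direction kept. *MKI67* lost its call without siBACH1 replicate 2, sgBACH1 replicate 2 or 3, or sgCont replicate 1, with values of -0.29 to -0.37. *CCNB1* lost it without siBACH1 replicate 1 or 3, siCont replicate 1, sgBACH1 replicate 1 or 2, or sgCont replicate 1 or 3 (0.27 to 0.35). *AURKB* lost it without siBACH1 replicate 2 or sgBACH1 replicate 1 (-0.46 and -0.49). *CDT1* lost it without siBACH1 replicate 1 or 2, siCont replicate 1 or 2, sgBACH1 replicate 1 or 2, or sgCont replicate 1 or 3 (-0.43 to -0.57). With all 12 libraries *CCNB1* (0.33) and *CDT1* (-0.53) also lost theirs with no filter on low counts, and *CDT1* with a replicate block (-0.54). Other members gained a call when a library was left out. Without siCont replicate 2 these were *CCNE1* (1.22), *PCNA* (0.46), *MCM6* (0.34) and *BUB1* (0.30), and without sgCont replicate 3 *CCNE1* (1.17), *CCNE2* (-0.78), *KIF11* (-0.43) and *CENPF* (-0.39). *GINS2* gained one without siBACH1 replicate 3, siCont replicate 1 or sgCont replicate 1 (-0.74 to -0.78), *MCM3* without siCont replicate 3 (-0.49) and *CCNE2* without siBACH1 replicate 1 (-0.78). Calls were also gained with all 12 libraries. *MCM3* did so with no filter on low counts, a replicate block, DESeq2 or limma-voom (-0.39 to -0.41). *GINS2* did so with no filter or DESeq2 (-0.64), and *CCNE1* (0.95) and *CENPA* (-0.40) with DESeq2.

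**Figure D2:**
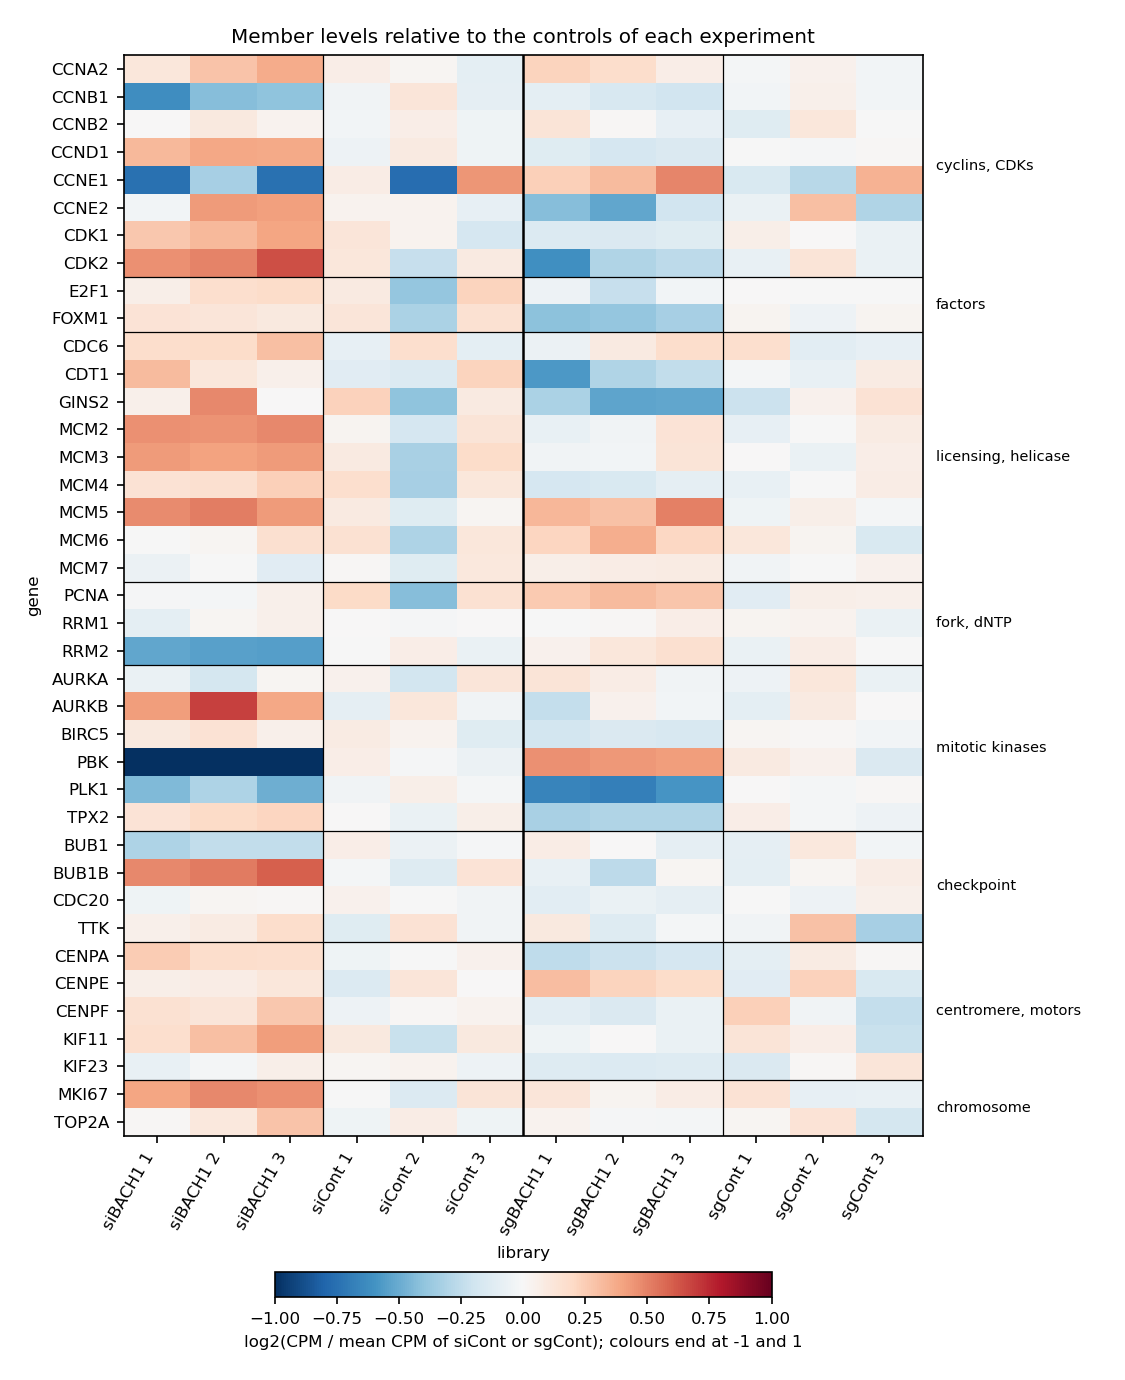
Log2 ratio of each member's CPM in each library to the mean CPM of the controls of its own experiment (siCont or sgCont), genes in rows by role and libraries in columns; red is higher, blue is lower, and colours end at -1 and 1. *PBK* is dark blue in all siBACH1 libraries and red in all sgBACH1 libraries, and siCont replicate 2 is blue in most genes of the helicase block.

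Per kilobase of exon the levels spanned a wide range within each group. *PCNA*, the sliding clamp that holds polymerases on DNA, was highest in every group, with a mean of 151 CPM per kb in siBACH1, 151 in siCont, 160.4 in sgBACH1 and 131 in sgCont. The cyclin E genes *CCNE1* and *CCNE2* were the lowest pair in each group, at 2.48 and 3.93 CPM per kb in siBACH1, 3.75 and 3.23 in siCont, 4.41 and 2.94 in sgBACH1, and 3.45 and 3.80 in sgCont. In siCont, *CCNB1* (97.1 CPM per kb), *TPX2* (93.2) and *MCM7* (91.4) came next after *PCNA*, and *GINS2* (7.05) and *CDC6* (8.91) followed the cyclin E genes from below. *PBK* stood at 4.22 CPM per kb in siBACH1, near the cyclin E genes, against 25.1 in siCont. Exon lengths come from GENCODE 29 and may differ from those of the annotation used for counting.

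Sequence upstream of the start sites is shown for 4 members, chosen because they were called in at least 1 comparison and carry the letters searched, 2 of G2/M and 2 of S phase. Sequences are from RefSeq (GRCh38.p14), the 250 bases before the start, 5′ to 3′ on the gene's strand. Capitals mark, on either strand, cell cycle homology region letters (TTTGAA or TTTAAA), E2F letters (TTTGGCGC, TTTCGCGC, TTCCCGCC or TTTCCCGC) and CCAAT. E2F letters can overlap. The last pair does in *GINS2*, and in *MCM6* TTTGGCGC overlaps TTTCGCGC read on the other strand. The sequences lie at chr16:23678639-23678888 (plus strand) for *PLK1*, chr5:69166900-69167149 (plus) for *CCNB1*, chr2:135876444-135876693 (minus) for *MCM6* and chr16:85688955-85689204 (minus) for *GINS2*.
PLK1: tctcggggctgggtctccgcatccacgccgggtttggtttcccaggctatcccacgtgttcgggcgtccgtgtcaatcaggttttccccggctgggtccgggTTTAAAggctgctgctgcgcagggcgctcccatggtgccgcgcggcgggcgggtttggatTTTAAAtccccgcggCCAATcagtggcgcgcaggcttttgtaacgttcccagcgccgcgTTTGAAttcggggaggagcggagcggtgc
CCNB1: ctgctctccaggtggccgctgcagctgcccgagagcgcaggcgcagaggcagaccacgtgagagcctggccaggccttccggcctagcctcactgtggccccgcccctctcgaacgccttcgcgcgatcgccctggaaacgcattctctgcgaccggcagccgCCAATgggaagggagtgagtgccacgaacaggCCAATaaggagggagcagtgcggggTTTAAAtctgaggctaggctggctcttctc
MCM6: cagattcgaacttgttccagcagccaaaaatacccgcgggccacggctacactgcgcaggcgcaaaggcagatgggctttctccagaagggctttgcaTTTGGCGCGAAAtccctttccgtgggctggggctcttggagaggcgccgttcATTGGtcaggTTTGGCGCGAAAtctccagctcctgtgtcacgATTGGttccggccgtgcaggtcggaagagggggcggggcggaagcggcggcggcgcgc
GINS2: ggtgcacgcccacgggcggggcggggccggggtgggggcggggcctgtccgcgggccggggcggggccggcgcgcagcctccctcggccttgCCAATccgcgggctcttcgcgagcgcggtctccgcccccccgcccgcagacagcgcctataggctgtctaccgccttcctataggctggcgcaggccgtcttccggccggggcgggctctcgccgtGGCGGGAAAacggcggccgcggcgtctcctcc

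The promoter table covered 29 of the 40 named genes with 37 promoters of 300 bases, from 250 before to 50 after the start. They include 3 S-phase promoters of *UHRF1*, of which 2 hold E2F letters and CCAAT. Among the genes not covered were *PBK*, *MCM5*, *CDK2*, *FOXM1*, *TPX2* and *CCND1*. Overlapping windows of a gene, as for *AURKB* and *CDK1*, were counted as separate promoters. The homology region letters stood in 14 of 18 G2/M promoters (77.8%), in 3 of 19 S-phase promoters (15.8%) and in 24.0% of all 34943 promoters in the table. E2F letters stood in 3 of 18 G2/M promoters (16.7%), 12 of 19 S-phase promoters (63.2%) and 5.01% of all promoters. CCAAT stood in 88.9% of G2/M, 78.9% of S-phase and 34.6% of all promoters. The letters shared by BACH1 and NRF2 sites (TGACTCAGC or TGAGTCAGC) stood in 0 of the 37 member promoters and in 0.982% of all, which says only that these letters are not in these windows. Letters were counted without a test, and a match is no sign that a factor binds.

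Among the cyclins and their kinases, *CCNB1* (ENSG00000134057.10, chromosome 5), whose cyclin B1 activates CDK1 for entry into mitosis, was the only one of 8 to fall in the siRNA comparison. It had 161, 185 and 188 CPM in siBACH1, against 242, 269.6 and 233 CPM in siCont, so the groups did not overlap (log2 fold change -0.49 ± 0.09 SE, edgeR adjusted p = 0.00396). In the knockout it had 267, 255 and 249.8 CPM in sgBACH1, against 280.0, 296 and 280.5 CPM in sgCont, and at -0.15 ± 0.07 (SE) it did not pass. *CCNB2*, the second B-type cyclin gene, averaged 62.7 ± 2.21 CPM in siBACH1 and 60.8 ± 2.48 CPM in siCont (SD, n = 3 each), with a log2 fold change of 0.04 ± 0.08 (SE).

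The partner kinase gene *CDK1* (ENSG00000170312.11, chromosome 10) had 160.1, 167 and 175 CPM in siBACH1, against 145, 136 and 119 CPM in siCont, with every siBACH1 library above every siCont library. Its log2 fold change was 0.32 ± 0.09 (SE, edgeR adjusted p = 0.0264), and the call was lost without siBACH1 replicate 1, 2 or 3 or siCont replicate 3 (0.24 to 0.35). *CCND1* (ENSG00000110092.3, chromosome 11), encoding the G1 cyclin that activates CDK4 and CDK6, had 377, 394 and 391 CPM in siBACH1, against 290.3, 321 and 292 CPM in siCont. It rose by 0.35 ± 0.07 (SE, edgeR adjusted p = 0.00783), a call lost without siBACH1 replicate 2 (0.33). In the knockout *CCND1* had 404, 391 and 399 CPM in sgBACH1, all below the 439, 437 and 443 CPM of sgCont, yet at -0.15 ± 0.07 (SE) it did not pass, whereas it passed with DESeq2 (-0.15).

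*CDK2* (ENSG00000123374.6, chromosome 12), the kinase gene of the cyclin E and cyclin A complexes, moved in opposite directions in the experiments. It had 67.7, 69.4 and 76.8 CPM in siBACH1, against 53.4, 42.0 and 52.4 CPM in siCont (log2 fold change 0.52 ± 0.11 SE, edgeR adjusted p = 0.00742). In the knockout it had 32.4, 40.1 and 41.3 CPM in sgBACH1, against 47.0, 54.0 and 47.3 CPM in sgCont (-0.38 ± 0.13 SE, edgeR adjusted p = 0.0271). Neither pair of groups overlapped. The knockout call was lost without sgBACH1 replicate 1 or 2 or sgCont replicate 2, with values of -0.28 to -0.43. The difference of -0.91 ± 0.17 (SE) kept its call in every setting tried (edgeR adjusted p = 0.000683 over 12 libraries).

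*CCNE1*, one of the cyclin E genes that carry cells into S phase, was low and varied between replicates. It had 5.70, 7.58 and 5.69 CPM in siBACH1, against 10.1, 5.64 and 13.0 CPM in siCont, and siCont replicate 2 lay with the siBACH1 libraries. At -0.61 ± 0.29 (SE) it did not pass, whereas without siCont replicate 2 it did, at -0.88, as it did with no filter on low counts (-0.61). *CCNA2*, the S and G2 cyclin gene, stood at 0.25 ± 0.09 and 0.15 ± 0.08 (SE) in the siRNA and knockout comparisons, with groups that did not overlap in either, and passed in neither with all libraries. After the siRNA *CCNA2* passed without siCont replicate 2 (0.26), under upper quartile scaling (0.29) and in 1 fit of 12 libraries (0.26).

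Of the transcription factor genes, *FOXM1* fell in the knockout and *E2F1* passed in neither comparison. *FOXM1* (ENSG00000111206.8, chromosome 12), which encodes an activator of G2/M genes, had 131, 133 and 138 CPM in sgBACH1, against 177, 167 and 177 CPM in sgCont. The groups were well apart, and the log2 fold change was -0.38 ± 0.08 (SE, edgeR adjusted p = 0.000598). In the siRNA experiment it had 112, 112 and 109.8 CPM in siBACH1, against 112, 82.2 and 114 CPM in siCont, where siCont replicate 2 alone was low. *E2F1*, an activator of S-phase genes, averaged 64.5 ± 2.93 CPM in siBACH1 and 58.6 ± 12.3 CPM in siCont, and 64.8 ± 4.85 CPM in sgBACH1 and 69.4 ± 0.239 CPM in sgCont (SD, n = 3 each).

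The MCM2 to MCM7 genes encode the 6 subunits of the replicative helicase, which CDC6 and CDT1 load at origins. *MCM2*, *MCM3* and *MCM5* rose in the siRNA comparison, and *MCM5* and *MCM6* rose in the knockout. *MCM5* (ENSG00000100297.11, chromosome 22) had 135, 139 and 130.3 CPM in siBACH1, against 104, 89.4 and 98.5 CPM in siCont (log2 fold change 0.46 ± 0.08 SE, edgeR adjusted p = 0.00403). It had 167, 162 and 188 CPM in sgBACH1, against 129, 138 and 131 CPM in sgCont (0.38 ± 0.08 SE, edgeR adjusted p = 0.00105). The difference between its responses was -0.09 ± 0.12 (SE) and did not pass, and both calls held in every setting.

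*MCM2* (ENSG00000073111.9, chromosome 3) had 139, 138 and 141 CPM in siBACH1, against 103, 89.8 and 110.5 CPM in siCont, with no overlap (0.45 ± 0.09 SE, edgeR adjusted p = 0.00626). In the knockout it averaged 148 ± 11.4 CPM in sgBACH1 and 147 ± 8.35 CPM in sgCont (SD, n = 3 each). *MCM3* (ENSG00000112118.13, chromosome 6) had 210.1, 207 and 210.0 CPM in siBACH1, against 167, 125 and 178 CPM in siCont, where replicate 2 was the low one. It rose by 0.41 ± 0.12 (SE, edgeR adjusted p = 0.0354), a value that was 0.27 without siCont replicate 2. The call was lost without siBACH1 replicate 1, 2 or 3 or siCont replicate 1 (0.40 to 0.44).

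*MCM6* (ENSG00000076003.4, chromosome 2) had 181, 200.2 and 180.4 CPM in sgBACH1, against 169, 159 and 141 CPM in sgCont (0.26 ± 0.08 SE, edgeR adjusted p = 0.0248). The groups lay close, and the call was lost without sgBACH1 replicate 1 or 2 or sgCont replicate 3 (0.19 to 0.28). *MCM4* stood at 0.17 ± 0.12 in the siRNA comparison and -0.14 ± 0.07 in the knockout (SE), and *MCM7* at -0.07 ± 0.08 and 0.07 ± 0.07, all short of the test. The fold changes of the 6 subunit genes ran from -0.07 for *MCM7* to 0.46 for *MCM5* after the siRNA and from -0.14 for *MCM4* to 0.38 for *MCM5* in the knockout.

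Of the other licensing and helicase genes, *CDT1* and *GINS2* fell in the knockout. *CDT1* (ENSG00000167513.4, chromosome 16) had 33.5, 40.4 and 42.1 CPM in sgBACH1, against 49.2, 47.4 and 52.8 CPM in sgCont (-0.37 ± 0.12 SE, edgeR adjusted p = 0.0292). *GINS2* (ENSG00000131153.4, chromosome 16), encoding a subunit of the GINS complex that joins the helicase when origins fire, had 29.6, 25.6 and 25.8 CPM in sgBACH1, against 31.9, 38.1 and 40.9 CPM in sgCont (-0.45 ± 0.14 SE, edgeR adjusted p = 0.0197). Neither gene's groups overlapped. *CDT1* lost its call without sgBACH1 replicate 1 or 2 or sgCont replicate 1 or 3 (-0.28 to -0.40), and *GINS2* lost its call without sgBACH1 replicate 2 or 3 or sgCont replicate 3 (-0.37 to -0.42). *CDC6* stood at 0.21 ± 0.10 and 0.07 ± 0.12 (SE) in the siRNA and knockout comparisons and passed in neither with all libraries, whereas without siCont replicate 2 it passed as a rise after the siRNA (0.30).

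At the fork, *RRM2* fell after the siRNA and *PCNA* rose in the knockout. *RRM2* (ENSG00000171848.9, chromosome 2) encodes the small subunit of ribonucleotide reductase, which makes deoxynucleotides, and *RRM1* the large one. *RRM2* had 113, 112 and 111 CPM in siBACH1, against 162, 169.7 and 155 CPM in siCont (-0.55 ± 0.08 SE, edgeR adjusted p = 0.000917). The groups were far apart, whereas in the knockout 188, 197 and 203 CPM in sgBACH1 overlapped with 174, 191 and 181 CPM in sgCont. *RRM1* averaged 164 ± 8.88 CPM in siBACH1 and 165 ± 1.49 CPM in siCont (SD, n = 3 each), with a log2 fold change of -0.02 ± 0.07 (SE). *PCNA* (ENSG00000132646.6, chromosome 20) had 232, 241 and 235 CPM in sgBACH1, against 179, 201 and 200.1 CPM in sgCont (0.28 ± 0.08 SE, edgeR adjusted p = 0.00683). In the siRNA experiment it had 219.6, 219 and 229 CPM in siBACH1, against 254, 165 and 247 CPM in siCont, where replicate 2 was again low. Without siCont replicate 2 *PCNA* passed as a fall of 0.18.

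The largest change of any member was that of *PBK* (ENSG00000168078.5, chromosome 8), which encodes a mitotic serine/threonine kinase. It had 9.54, 10.1 and 7.79 CPM in siBACH1, against 57.0, 53.9 and 52.4 CPM in siCont, 5.99-fold lower (-2.58 ± 0.13 SE, edgeR adjusted p = 3.73e-06). In the knockout it had 62.5, 61.5 and 60.8 CPM in sgBACH1, against 48.3, 47.0 and 41.2 CPM in sgCont (0.44 ± 0.11 SE, edgeR adjusted p = 0.00456). Its levels thus moved apart in the experiments, with no overlap in either. The response to the knockout exceeded that to the siRNA by 3.01 ± 0.16 (SE, edgeR adjusted p = 1.26e-09), and the calls held in every setting.

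*PLK1* (ENSG00000166851.10, chromosome 16), encoding the kinase that drives centrosome maturation, spindle assembly and cytokinesis, was the one member that fell in both experiments. It had 115, 127 and 112 CPM in siBACH1, against 153, 163 and 155 CPM in siCont (-0.42 ± 0.08 SE, edgeR adjusted p = 0.00651). It had 155, 152 and 162 CPM in sgBACH1, against 245, 241 and 246 CPM in sgCont (-0.64 ± 0.07 SE, edgeR adjusted p = 2.84e-07). Neither pair overlapped, and all calls of the gene held in every setting. The difference between the responses was -0.23 ± 0.11 (SE) and did not pass. SiCont and sgBACH1 had similar levels, but they belong to separate experiments and were not compared.

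*AURKB* (ENSG00000178999.8, chromosome 17), the kinase gene of the chromosomal passenger complex, had 61.1, 73.1 and 59.7 CPM in siBACH1, against 43.0, 49.4 and 44.4 CPM in siCont (0.50 ± 0.11 SE, edgeR adjusted p = 0.0122). Every siBACH1 library lay above every siCont library, and the call was lost without siBACH1 replicate 2 (0.38) or siCont replicate 1 (0.44). *BIRC5*, encoding survivin of the same complex, stood at 0.09 ± 0.09 (SE) and did not pass. *TPX2* (ENSG00000088325.11, chromosome 20), whose product activates Aurora A on the spindle, had 369.7, 376 and 376 CPM in sgBACH1, against 486, 456 and 448 CPM in sgCont (-0.31 ± 0.07 SE, edgeR adjusted p = 0.00106). All sgBACH1 libraries lay below all sgCont libraries. *AURKA*, the Aurora A gene, averaged 141 ± 8.27 CPM in sgBACH1 and 136 ± 9.38 CPM in sgCont (SD, n = 3 each). After the siRNA it stood at -0.08 ± 0.09 (SE) and passed without siCont replicate 2 (-0.17).

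**Figure D3:**
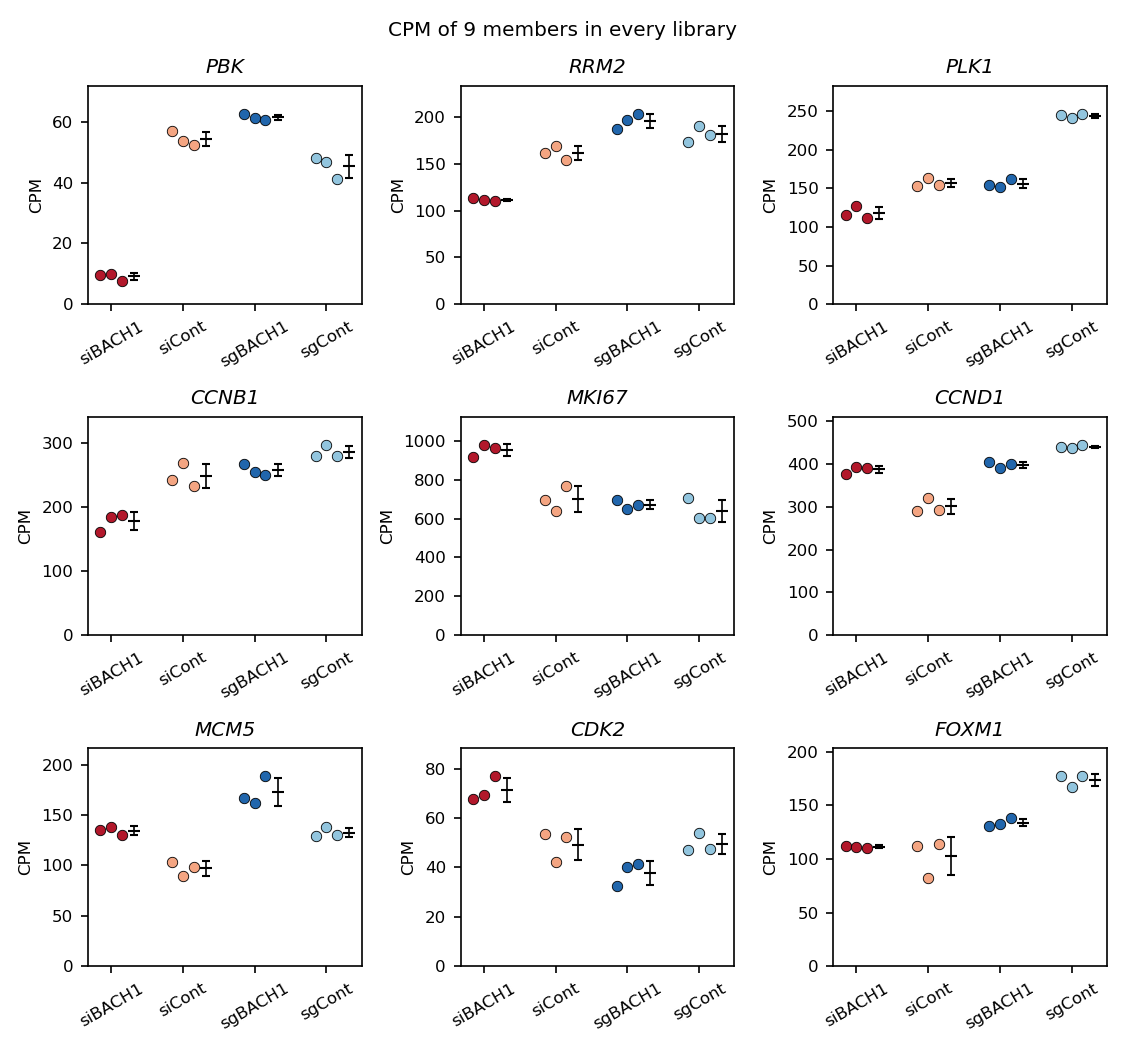
CPM of 9 members (vertical axes from 0) in each library of siBACH1, siCont, sgBACH1 and sgCont; points are libraries, and bars beside them are the mean and SD of 3. *PLK1* is lower in siBACH1 than in siCont and in sgBACH1 than in sgCont, *CDK2* and *PBK* move in opposite directions, and *FOXM1* is lower in sgBACH1 (131 to 138 CPM) than in sgCont (167 to 177 CPM).

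Among the spindle checkpoint genes, *BUB1B* rose and *BUB1* fell after the siRNA, and none of the 4 passed in the knockout. *BUB1B* (ENSG00000156970.8, chromosome 15), encoding the checkpoint protein BubR1, had 84.0, 86.0 and 91.0 CPM in siBACH1, against 59.3, 55.0 and 66.1 CPM in siCont (0.52 ± 0.09 SE, edgeR adjusted p = 0.00344). *BUB1* (ENSG00000169679.10, chromosome 2), encoding the kinetochore kinase, had 115, 120.2 and 120.4 CPM in siBACH1, against 149.6, 137 and 142 CPM in siCont (-0.28 ± 0.07 SE, edgeR adjusted p = 0.0235). Neither pair overlapped, but *BUB1* lost its call without siBACH1 replicate 1, 2 or 3 or siCont replicate 1 or 3 (-0.26 to -0.30). *TTK*, encoding the kinase MPS1, stood at 0.10 ± 0.09 (SE) after the siRNA. *CDC20*, encoding the activator of the anaphase-promoting complex, stood at -0.01 ± 0.07 after the siRNA and -0.09 ± 0.08 in the knockout (SE).

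None of the 5 centromere and motor genes passed in either comparison with all libraries. *CENPA*, encoding the centromeric histone variant, stood at 0.19 ± 0.10 after the siRNA and -0.21 ± 0.14 in the knockout (SE). *CENPE* and *CENPF*, encoding a kinetochore motor and a kinetochore protein, stood at 0.07 ± 0.09 and 0.17 ± 0.07 after the siRNA. *KIF11*, encoding the spindle motor Eg5, stood at 0.29 ± 0.10 after the siRNA (SE, edgeR adjusted p = 0.0745), with all siBACH1 libraries above all siCont libraries. Without siCont replicate 2, *KIF11* (0.19) and *CENPF* (0.17) passed as rises after the siRNA, and without sgCont replicate 2 *CENPE* passed as a rise in the knockout (0.37, against 0.24 ± 0.11 SE with it). *KIF11* also passed with no filter on low counts (0.30). *KIF23*, encoding a central spindle motor, stood at -0.02 ± 0.08 after the siRNA and -0.13 ± 0.09 in the knockout (SE).

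*MKI67* (ENSG00000148773.8, chromosome 10), encoding the chromosome coat protein Ki-67 used as a marker of dividing cells, had 919, 976 and 961 CPM in siBACH1, against 697, 637 and 767 CPM in siCont (0.43 ± 0.08 SE, edgeR adjusted p = 0.00484). All siBACH1 libraries lay above all siCont libraries. In the knockout it had 693, 649 and 672 CPM in sgBACH1, which overlapped with the 703, 603 and 605 CPM of sgCont (0.07 ± 0.07 SE). *TOP2A*, the G2/M topoisomerase gene, averaged 394 ± 39.2 CPM in siBACH1 and 359 ± 17.0 CPM in siCont, and 387 ± 8.53 CPM in sgBACH1 and 387 ± 41.8 CPM in sgCont (SD, n = 3 each).

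Set against each other, the S-phase and G2/M members were counted in both experiments, with no test between the classes. After the siRNA 3 of 15 S-phase members rose and 1 fell, with a median log2 fold change of 0.15, and 4 of 22 G2/M members rose and 4 fell, with a median of 0.10. That is 26.7% and 36.4% called, read against 23.9% of all genes tested. In the knockout 3 S-phase members rose and 2 fell (median 0.02), and 1 G2/M member rose and 3 fell (median -0.08). That is 33.3% and 18.2% called, read against 23.5% of all genes tested. These counts are small and move with single libraries. Without siCont replicate 2, 4 S-phase members rose and 3 fell after the siRNA (median 0.02) and 7 G2/M members rose and 5 fell (median 0.13), whereas without siBACH1 replicate 2, 2 G2/M members rose and 3 fell. The siRNA median of S-phase members was 0.10 without siBACH1 replicate 2 and 0.23 without siCont replicate 3. In the knockout 2 S-phase members rose and 1 fell without sgBACH1 replicate 1, 2 rose and 0 fell without sgBACH1 replicate 2 or sgCont replicate 3, and 1 fell without sgBACH1 replicate 3 or sgCont replicate 1. The knockout median of S-phase members ran from 0.009 without sgBACH1 replicate 3 to 0.056 without sgCont replicate 3. With sgCont replicate 2 left out, 2 G2/M members rose in the knockout and 3 fell.

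The mean log2(CPM + 1) of S-phase members minus that of G2/M members was -0.46 ± 0.02 in siBACH1 and -0.57 ± 0.16 in siCont, and -0.43 ± 0.07 in sgBACH1 and -0.51 ± 0.07 in sgCont (SD, n = 3 each). The siBACH1 libraries stood at -0.46, -0.43 and -0.48, against -0.50, -0.75 and -0.46 in siCont, so the groups overlapped and replicate 2 of siCont stood low. The sgBACH1 libraries stood at -0.49, -0.44 and -0.35, against -0.54, -0.56 and -0.43 in sgCont, which also overlapped. In siCont replicate 2 the S-phase mean was 6.15 (6.43 and 6.46 in replicates 1 and 3), whereas the G2/M mean was 6.91 (6.93 and 6.92).

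**Figure D4:**
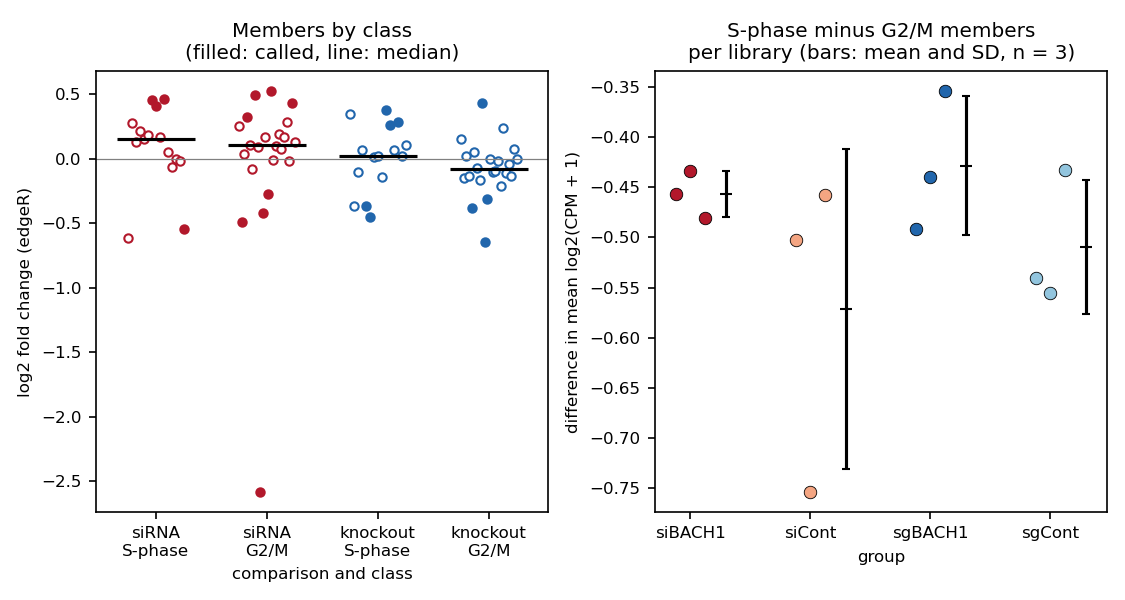
Left, log2 fold changes of S-phase and G2/M members in each comparison (points are genes, filled where called, lines are medians of 0.15, 0.10, 0.02 and -0.08 from left to right). Right, mean log2(CPM + 1) of S-phase minus G2/M members in each library, where the groups overlap in both experiments and siCont replicate 2 is lowest at -0.75.

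Some members that fell after the siRNA hold the letters AACATTA or ACATTAA in their annotated 3′ UTR. These letters had been found in many genes that fell in these data, so they are no independent evidence for the members. They stood in 9 of the 39 members and in 24.7% of the 11652 genes tested that had a 3′ UTR to search. Of those 9, *PBK*, *RRM2* and *PLK1* fell, *MCM5* rose and 5 did not pass (*CCNA2*, *CDT1*, *CENPE*, *KIF11*, *MCM6*), and of the 30 without them 2 fell and 8 rose. The sites of 6 members are shown (GENCODE 29, GRCh38, 5′ to 3′ on the gene's strand, capitals mark the letters searched), since these genes fell, rose or did not pass with the same letters. They lie at chr2:10131186-10131214 (plus) for *RRM2*, chr16:23690334-23690362 (plus) for *PLK1*, chr22:35425320-35425348 (plus) for *MCM5*, chr2:135839626-135839650 (minus) for *MCM6*, chr16:88808476-88808504 (plus) for *CDT1* and chr4:121816976-121817004 (minus) for *CCNA2*.
RRM2: tatatgtgtacAACATTAAaatgaaaggc
PLK1: tggctttatgcACATTAAacagatgtgaa
MCM5: gaaatctatggAACATTAgataaggtatt
MCM6: aataaatggcaAACATTAAaaacaa
CDT1: ctggtggattcACATTAAaccggtttctg
CCNA2: tattttaaagcACATTAAaaacaaaaaac

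*PBK*, *RRM2* and *MCM6* hold both runs joined, and their siRNA log2 fold changes were -2.58, -0.55 and 0.05. *CCNB1* and *BUB1*, the other members that fell after the siRNA, hold neither run. The part of these letters in the siRNA changes was not tested.

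In the knockout, several members that fell lie among genes that fell too. Beside each member, the 50 tested genes on either side were taken in chromosome order (GENCODE 29). The neighbours of *PLK1*, *CDT1* and *GINS2* on chromosome 16 had median log2 fold changes of -0.37, -0.47 and -0.47, and 45 of 100, 39 of 77 and 50 of 100 of them were called lower. *CDT1* and *GINS2* lie near each other (positions 88803213 and 85676198), so their neighbours can be shared and need not be separate cases. The neighbours of *CDK2* on chromosome 12 had a median of -0.34, with 36 of 100 called lower. Those of *CCND1* on chromosome 11, which did not pass, had a median of -0.29, with 39 of 100 called lower. *FOXM1* (-0.05) and *TPX2* (0.02) had neighbours near 0, as did the 4 members that rose, *PBK* (-0.02), *MCM5* (-0.06), *PCNA* (0.01) and *MCM6* (-0.02). After the siRNA the neighbours of *PLK1*, *CDT1*, *GINS2* and *CDK2*, taken from the genes tested in that comparison, had medians of 0.10, 0.19, 0.13 and 0.07. *AURKA* on chromosome 20 had the highest neighbour median in the knockout, 0.24, with 31 of 100 called higher, and itself stood at 0.05 ± 0.08 (SE). The part of chromosome position in the members' changes was not tested.

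**Figure D5:**
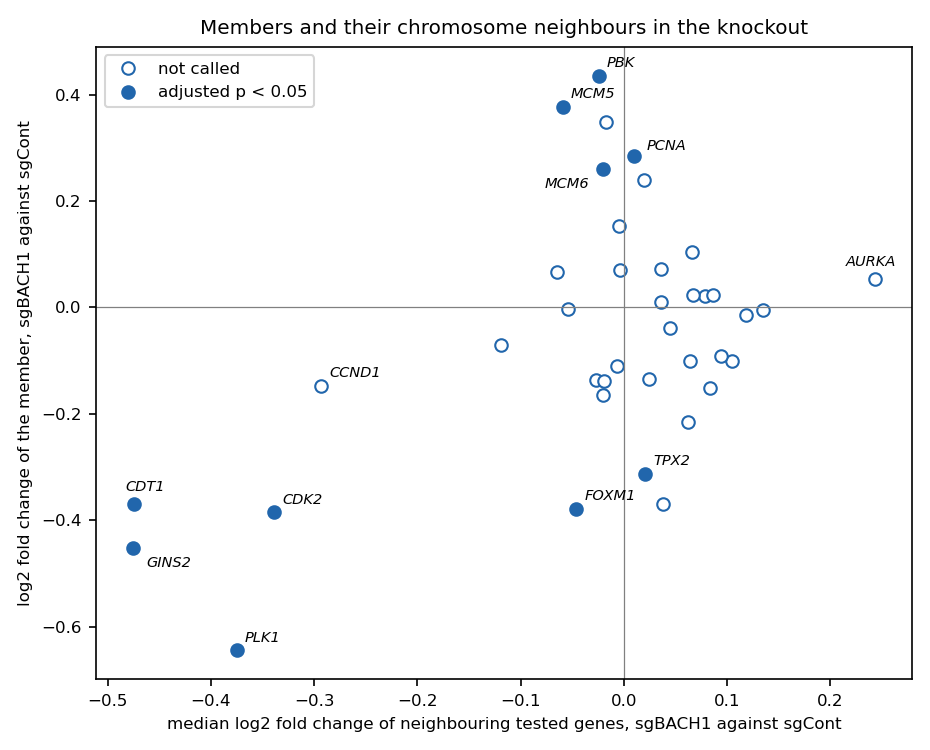
Each member's log2 fold change in sgBACH1 against sgCont (vertical axis) beside the median log2 fold change of up to 100 neighbouring tested genes in the same comparison (horizontal axis); filled points passed an adjusted p below 0.05. *PLK1*, *CDT1*, *GINS2* and *CDK2* lie at the lower left with neighbour medians of -0.34 to -0.47, and *FOXM1* and *TPX2* fell with neighbours near 0. *CDT1* and *GINS2* lie near each other on chromosome 16, so their neighbours can be shared.

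Other genes of the cell cycle, 154 in 3 lists that hold no member, were fitted alongside. After the siRNA 35 of 152 tested rose and 12 fell (30.9% called, median 0.10), of them 10 up and 3 down among 50 replication genes, 19 up and 6 down among 67 mitosis genes and 6 up and 3 down among 35 regulators. In the knockout 10 rose and 20 fell (19.7% called, median -0.01), of them 3 up and 4 down, 2 up and 11 down, and 5 up and 5 down in the same lists. Over all genes tested 23.9% were called after the siRNA and 23.5% in the knockout, and the lists' difference from these shares was not tested. These counts move with single libraries: without siBACH1 replicate 1, 2 or 3 or siCont replicate 1, 14 to 21 rose after the siRNA, and without siCont replicate 2, 51 rose and 23 fell. Without sgBACH1 replicate 1 or 2, 6 or 5 rose and 12 fell in the knockout, and the knockout median ran from -0.007 without sgBACH1 replicate 1 to -0.044 without sgCont replicate 3.

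The largest siRNA rises in these lists were those of *CDC25A* (0.77 ± 0.15), a phosphatase that activates CDK2, *ESPL1* (0.76 ± 0.09), encoding separase, *CDK6* (0.76 ± 0.14), the G1 kinase gene, and *KIF18B* (0.69 ± 0.12), a microtubule motor gene. The largest falls were those of *E2F5* (-1.77 ± 0.22), a repressive E2F, *CKS1B* (-1.31 ± 0.11), a CDK-binding subunit, *SLBP* (-1.30 ± 0.09), which binds histone mRNA, and *CENPK* (-1.09 ± 0.09), of the inner kinetochore (SE throughout). *SLBP* averaged 24.1 ± 1.44 CPM in siBACH1 and 59.1 ± 3.56 CPM in siCont, and 60.03 ± 1.93 CPM in sgBACH1 and 59.9 ± 3.89 CPM in sgCont (SD, n = 3 each). Of the 12 that fell 9 hold AACATTA or ACATTAA in the 3′ UTR, of the 35 that rose 3 do, and of the 105 not called 18 do. They stood in 24.7% of all genes tested that had a 3′ UTR to search. These letters had been found in many genes that fell in these data, so the counts are no independent evidence. The part of these letters was not tested here either.

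In the knockout *CDK6* (1.27 ± 0.08), *RBL1* (0.85 ± 0.13), which encodes the pocket protein p107, *ORC1* (0.56 ± 0.13), an origin-binding subunit, and *KIF4A* (0.50 ± 0.09), a chromosome motor gene, rose most. *PKMYT1* (-0.69 ± 0.12), encoding an inhibitory kinase of CDK1, *CDK4* (-0.65 ± 0.08), the other G1 kinase gene, *TIMELESS* (-0.55 ± 0.08), of the fork protection complex, and *SMC4* (-0.54 ± 0.09), of condensin, fell most (SE throughout). *CDK6*, which averaged 481 ± 23.3 CPM in siBACH1 and 282 ± 61.3 CPM in siCont, and 271 ± 7.65 CPM in sgBACH1 and 112 ± 9.41 CPM in sgCont (SD, n = 3 each), was among the largest rises in both experiments. All 16 of these named changes kept their calls in every setting.

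Counts of some members are uncertain, since the sources used here do not give whether counting used strand. Exons of opposite-strand genes overlap 11 members (*CCNA2*, *CCND1*, *CCNE2*, *CDK2*, *FOXM1*, *GINS2*, *KIF23*, *MCM2*, *MCM7*, *PLK1*, *RRM1*), and exons of other genes on the same strand overlap 3 (*BUB1B*, *CENPA*, *RRM2*).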

How the data were processed

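RNA was measured in 12 libraries of AsPC-1 cells, grouped by the sample titles. The deposited values are raw counts per gene, made by the authors in 1 table per experiment. Per the submitters' processing notes HTSeq 0.9.1 and SAMtools were used with genome hg19. The sources used here give no aligner, counting mode or strand setting. Names came from reference tables by unversioned identifier (51996 of 57820 took a symbol). Positions, exon lengths and 3′ UTRs came from GENCODE 29 (GRCh38), and no coordinate was carried between builds.

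Tests used the two-sided quasi-likelihood test of edgeR 4.0.16 (R 4.3.3) with TMM scaling and the filterByExpr filter (minimum count 10). P-values were adjusted by Benjamini-Hochberg over every gene in the fit, and calls were made below 0.05. Each experiment was fitted alone, and the difference of responses over 12 libraries. The SE is the log2 fold change divided by the square root of F. CPM use TMM over 12 libraries. A median of a class carries no test. The fits were also run on simulated data in which some genes carried known changes. Of genes changed 1.5-fold, 37.3% were recovered in the siRNA fit, 44.8% in the knockout fit and 8.96% for the difference. Among genes called in these runs, 11.2%, 4.44% and 2.15% were false, so the siRNA share lay above the 0.05 threshold. Of genes changed 2-fold, 55.2%, 68.7% and 52.2% were recovered in the same fits, and of genes changed 4-fold 86.4%, 80.3% and 75.8%. A gene that did not pass may therefore still have changed, by 1.5-fold or by more. Alternatives were RLE and upper quartile scaling, no filter, DESeq2 1.42.0, limma-voom (limma 3.58.1), a replicate block, 1 fit of 12 libraries and each library left out. Every member may be named, and from the other lists the 4 largest called changes each way whose mean log2 CPM reached 1. Members and lists were chosen with earlier results of these data known. Depth was 13099706 to 21478886 counts per library, and the lowest member count was 72.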

Additional observations from a re-analysis of the deposited data

Results flagged for a closer look

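For 13 members the response to the knockout differed from the response to the siRNA by a test of the difference itself (edgeR quasi-likelihood test over 12 libraries, adjusted p below 0.05). As the knockout log2 fold change minus the siRNA one, the values were 3.01 for *PBK*, 0.64 for *RRM2* and 0.33 for *CCNB1*. They were -0.91 for *CDK2*, -0.63 for *BUB1B*, -0.57 for *AURKB*, -0.53 for *CDT1*, -0.51 for *CCND1*, -0.49 for *FOXM1*, -0.49 for *TPX2*, -0.47 for *CDK1*, -0.45 for *MCM2* and -0.37 for *MKI67*. The experiments differ in the reagent, in their controls and in handling (24 h after transfection against selection in puromycin). They also differ in the change of *BACH1* RNA, with log2 fold changes of -3.15 after the siRNA and -0.48 in the knockout. These cannot be told apart here.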

How the results depend on the processing

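No called result changed direction in the settings tried, and the alternatives for the other cell cycle genes and *BACH1* were added after seeing the data. Of the calls of members, 9 of 14 after the siRNA, 5 of 10 in the knockout and 9 of 13 of the differences held in every setting. With single libraries left out, 5 to 13 members rose and 4 to 8 fell after the siRNA, 3 to 5 rose and 3 to 5 fell in the knockout, and 10 to 16 differed. Among the other cell cycle genes 14 to 51 rose and 8 to 23 fell after the siRNA, and 5 to 11 rose and 12 to 21 fell in the knockout. The siRNA median ran from 0.0227 to 0.231 for S-phase members and from 0.0901 to 0.134 for G2/M members. In 1 fit of 12 libraries 2 members rose in the knockout, where *MCM6*, *PCNA* and *GINS2* lost their calls. Under upper quartile scaling the siRNA median of G2/M members was 0.136, against 0.103 in the main fit. The median over all genes tested rose with it, to 0.0386 from 0.005. The cause was not tested.

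Replicate numbers were not used to pair the samples in the main fits. Same-numbered libraries correlated in their deviations at 0.08, 0.04 and -0.02 after the siRNA. In the knockout they did so at 0.05, 0.05 and 0.08, and each sgBACH1 library correlated best with its own number. Such low values do not show whether the samples were paired. With a replicate block 9 members rose and 4 fell after the siRNA (*BUB1* lost its call), 4 rose and 6 fell in the knockout, and 13 differed (*CDT1* lost its call and *MCM3* gained one). Without the filter on low counts the median over all genes moved to 0.115 in the knockout and 0.131 for the difference.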
